A study of Mus musculus with 8 samples.

Results

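Metallothioneins and the genes that set cellular zinc were followed in the kidneys of mice without Keap1, through 6 genes fixed by name: the metallothioneins Mt1, Mt2 and Mt3, the zinc-sensing transcription factor Mtf1, the zinc exporter Slc30a1 and the zinc importer Slc39a8. They are 6 of the 18217 named genes that had a probe on the array and were read by 10 probes, 9 of which were bright enough to use. The rule named the genes and set no threshold on a measured value, but the genes were chosen with earlier results of these data known. The kidneys of 8 mice were taken at 8 weeks of age, and the total RNA of each mouse was read on its own Agilent array in 1 colour (Cy3). In this experiment 4 NEKO mice (Keap1-/-::Nrf2Flox/Flox::K5-Cre) were set against 4 littermate controls, and each group held 2 females and 2 males. All controls were Keap1+/-::Nrf2Flox/Flox, and 3 of them also carried K5-Cre (named K1Cre), whereas control mouse 1, a female, did not (named K1). Thus the controls were heterozygous for Keap1 and were not wild type, and both groups carried floxed Nrf2 on a mixed 129Sv/J and C57BL/6J background. K5-Cre acts in squamous epithelium, so that NEKO kidneys lack Keap1 while their tubules keep Nrf2.

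Metallothioneins are small cysteine-rich proteins that bind zinc and copper and also take up cadmium. When free zinc rises, MTF-1, the protein encoded by Mtf1, enters the nucleus and binds metal response elements (MREs), and the metallothionein genes and Slc30a1 are its classical targets. Glucocorticoids and oxidative stress also raise metallothionein transcripts, and the proximal tubule of the kidney is a well-known site of metallothionein storage. Keap1 holds down the transcription factor Nrf2, which binds antioxidant response elements (AREs) in front of detoxifying genes. The comparison therefore addressed whether the zinc-handling genes differ between kidneys without Keap1 and control kidneys.

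Promoter windows of Mt1, Mt2 and Slc30a1, the 3 genes of the group known best as MTF-1 targets, are shown because they differ in how many MRE cores they hold. Each runs from 250 bases before to 30 bases after the RefSeq start of the gene. All are read from the plus strand of GRCm38.p6 (mm10). Where transcription begins in these kidneys was not tested, so that bases after the RefSeq start may still be promoter. The windows lie at chr8:94178839-94179118, chr8:94172368-94172647 and chr1:191906531-191906810. The cores searched were TGCACNC and TGCGCNC for the MRE and TGACNNNGC for the ARE, on both strands, and capitals mark the matches.
Mt1: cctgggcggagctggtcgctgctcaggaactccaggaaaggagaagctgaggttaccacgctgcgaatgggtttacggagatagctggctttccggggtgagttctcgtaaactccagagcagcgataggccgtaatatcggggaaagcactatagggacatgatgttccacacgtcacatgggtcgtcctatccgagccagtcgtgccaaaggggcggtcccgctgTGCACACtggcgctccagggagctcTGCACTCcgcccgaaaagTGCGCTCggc
Mt2: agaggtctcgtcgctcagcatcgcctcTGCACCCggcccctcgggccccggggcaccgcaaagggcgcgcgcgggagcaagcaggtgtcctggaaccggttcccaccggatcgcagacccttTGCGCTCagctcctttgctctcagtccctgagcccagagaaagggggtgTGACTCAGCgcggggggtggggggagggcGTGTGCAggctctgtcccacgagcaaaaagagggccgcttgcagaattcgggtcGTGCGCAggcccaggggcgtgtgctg
Slc30a1: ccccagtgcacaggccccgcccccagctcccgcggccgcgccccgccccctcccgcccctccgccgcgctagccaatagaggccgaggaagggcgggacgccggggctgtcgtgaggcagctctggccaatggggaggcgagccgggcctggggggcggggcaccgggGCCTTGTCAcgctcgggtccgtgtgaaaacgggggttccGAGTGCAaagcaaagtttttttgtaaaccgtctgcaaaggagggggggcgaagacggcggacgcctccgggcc

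The Mt1 window held 3 MRE cores, which began at positions -23, 3 and 21 from the RefSeq start, and 0 ARE cores. The Mt2 window held 4 MRE cores, at positions -223, -128, -50 and 5, and 1 ARE core at position -79. The Slc30a1 window held 1 MRE core at position -43 and 1 ARE core at position -82. No listed match overlapped another. In all 32851 windows of this length, 24.08% held at least 1 MRE core, 1.732% at least 3 and 0.405% at least 4, and 11.49% held at least 1 ARE core. The windows of Mt3 and Mtf1 held 0 of either core, and of the 2 start sites of Slc39a8 the upstream window held 1 ARE core and the downstream window 1 MRE core. A match is a description of the letters and not a site shown to be bound. Only these windows, set by the RefSeq start, were searched. Thus 0 cores in a window does not mean that the gene has none nearby, and counts could differ with another start or window. The counts of Mt1, Mt2 and Slc30a1 therefore compare these windows and not whole promoters.

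On each array 61.8% to 65.7% of the probes exceeded background clearly, and none was saturated. As a check of the labels, the Keap1 transcript was at 1.80, 1.92, 1.87 and 1.77 in control mice 1, 4, 7 and 8 and at 0.45, 0.060, 0.14 and 0.16 in NEKO mice 2, 3, 5 and 6, and the groups did not overlap (log2 difference -1.63, SE 0.10, adjusted p = 0.00458 from limma). All levels here are log2 signal relative to the same array's 75th percentile, so that a value of 0 is the brightness of that percentile, and levels of different genes cannot be ranked against each other. The 10 proximal tubule markers, which identify the tissue, were well above background on 8 of 8 arrays, and their summed level (linear, in units of the 75th percentile) was 753 to 963 in NEKO and 720 to 950 in control kidneys. Each slide held 1 sex and both groups equally, so that a difference between the sexes cannot be told apart from one between the slides.

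None of the 6 genes was called different between NEKO and control kidneys by limma with sex in the model, that is, at an adjusted p under 0.05 over all features tested. At this threshold 0.225% of the 19594 features were called. At an unadjusted p under 0.05, 1 of the 6, Mt1, passed and was higher in NEKO, whereas 18% of all features passed (7.37% higher and 10.6% lower). No gene of the 6 had groups without overlap, against 9.27% of all features. The differences of 4 genes were positive and those of 2 negative, with a median of 0.16 on the log2 scale beside -0.03 over all features. The values of each mouse are plotted by gene.

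**Figure D1:**
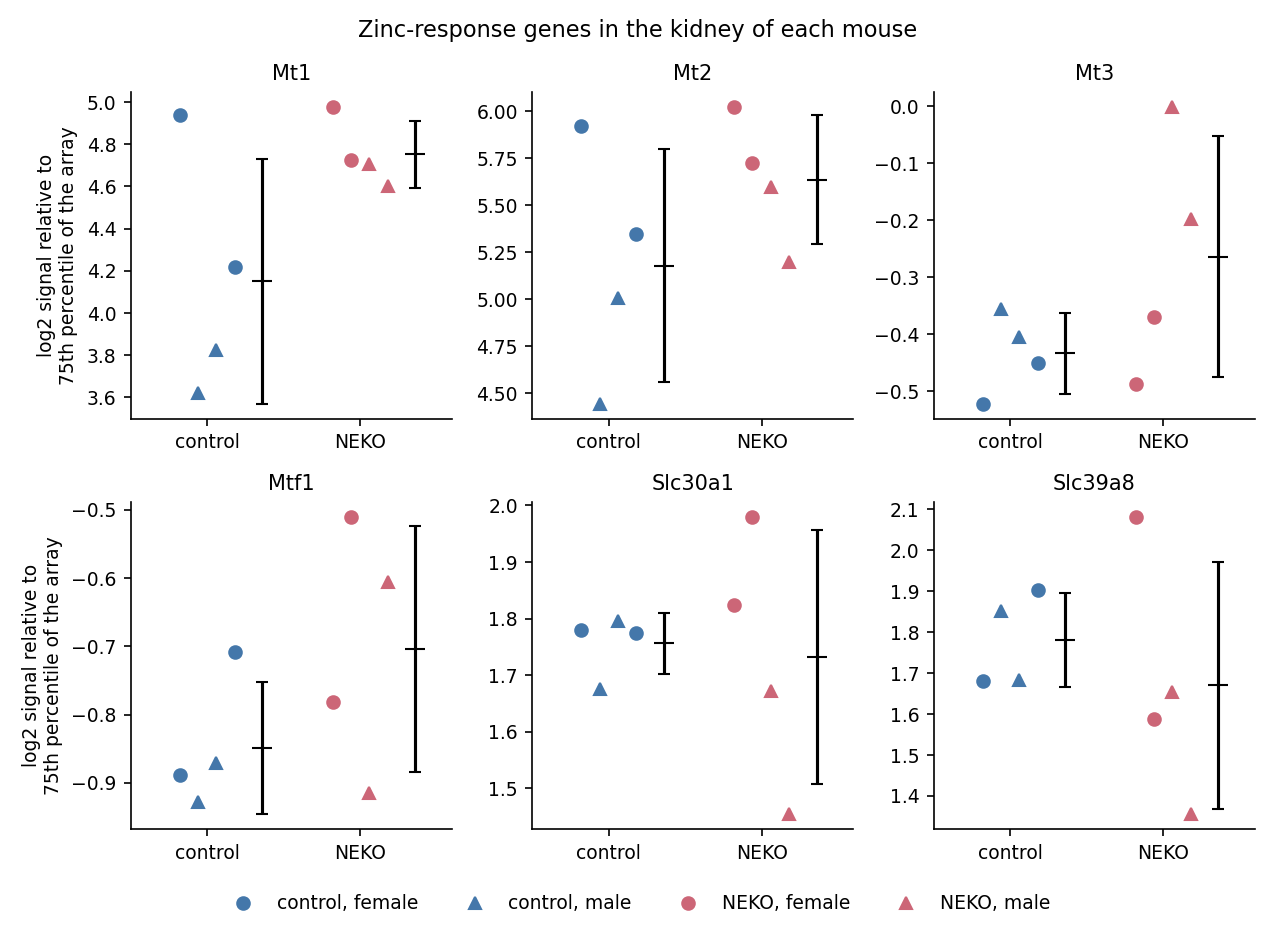
Level of the 6 genes in each mouse. The vertical axis is log2 signal relative to the array's 75th percentile and has its own range in each panel; circles are females and triangles males, and bars give the mean ± SD of 4 mice. For Mt1 the 4 NEKO mice lie between 4.60 and 4.98 while the controls run from 3.62 to 4.94, and in no panel do the groups separate.

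Mt1 (NM_013602) encodes metallothionein 1, and with Mt2 it is the metal-inducible form made in most tissues. Its level was 4.94, 3.62, 3.82 and 4.22 in control mice 1, 4, 7 and 8. In NEKO mice 2, 3, 5 and 6 it was 4.98, 4.72, 4.71 and 4.60. The NEKO mice lay close together and the controls did not: both male controls, mice 4 and 7, and the female control mouse 8 lay below every NEKO mouse, whereas the female control mouse 1 lay above all NEKO mice but mouse 2. The means were 4.75 ± 0.16 (SD, n = 4) in NEKO and 4.15 ± 0.58 (SD, n = 4) in control kidneys, a log2 difference of 0.60 (SE 0.20, 95% interval 0.12 to 1.09), or 1.52-fold. This difference had an unadjusted p of 0.0212 and an adjusted p of 0.207 from limma, and the exact permutation test of 4 mice against 4 gave p = 0.114 (two-sided, with 0.0286 the smallest it can give). In bulk kidney, fewer cells of a type and less RNA per cell cannot be told apart, here and for every gene that follows.

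The Mt1 probe was printed at 10 spots on each array, which gave a measure of the spread within an array that no other gene of the group had. The SD between spots of an array was 0.038 to 0.060, several times less than the SD between control mice. The highest Mt1 spot on the arrays of the male controls was at 3.89, and the lowest spot on any NEKO array was at 4.50. The highest spot of the female control mouse 8 was at 4.28. The spots of control mouse 1, from 4.85 to 5.02, lay above every spot of NEKO mice 3, 5 and 6, so that the spots did not separate the groups. Spots of an array share the RNA, the labelling and the hybridisation, and each mouse had 1 array, so that differences between mice and between arrays cannot be told apart.

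Split by sex, Mt1 was highest in NEKO females (mean 4.85), followed by NEKO males (4.66), control females (4.58) and control males (3.72). Of the 2 control females, mouse 1 (4.94) lay among the NEKO mice and mouse 8 (4.22) lay below them all. Both NEKO females lay above both NEKO males, with mice 3 and 5 close together at 4.72 and 4.71, and both control males lay below the other 6 mice. The difference between NEKO and control was 0.27 in females and 0.93 in males on the log2 scale. The test of the difference between the sexes, 0.66 (SE 0.35), gave an adjusted p of 0.589 from limma, and 0.0153% of all features passed that test. None of the 6 genes passed it at an unadjusted p under 0.05, as 10.5% of all features did. Control mouse 1 was also the control without K5-Cre, and without it the Mt1 difference was 0.81 with an adjusted p of 0.102 from limma. This was the largest of the 8 differences found when each mouse was left out in turn. They ran from 0.50 to 0.81, with adjusted p from 0.102 to 0.397. Whether the transgene had a part in the level of control mouse 1 was not tested.

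Mt2 (NM_008630) encodes metallothionein 2, the close partner of Mt1. Control mice 1, 4, 7 and 8 were at 5.92, 4.44, 5.01 and 5.35. NEKO mice 2, 3, 5 and 6 were at 6.02, 5.72, 5.60 and 5.20. The male control mice 4 and 7 were again the lowest, but NEKO mouse 6 lay below the female control mouse 8, and the groups overlapped. The log2 difference was 0.46 (SE 0.21, 95% interval -0.03 to 0.94), or 1.37-fold, with 5.64 ± 0.34 (SD, n = 4) in NEKO and 5.18 ± 0.62 (SD, n = 4) in control kidneys. It did not pass the test (adjusted p = 0.298 from limma, exact permutation p = 0.286), and as a ratio its interval runs from 0.981 to 1.92. The difference was 0.24 in females and 0.68 in males, and the difference between the sexes, 0.44 (SE 0.40), had an adjusted p of 0.785.

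Mt1 and Mt2 varied together over the mice. Pearson's r between their log2 levels was 0.94 and Spearman's rho 0.98 over 8 mice (exact permutation p = 0.000397 for each, adjusted p = 0.00595 over the 15 pairs of the 6 genes). The permutation moved all 8 mice freely, so that any difference between groups or sexes shared by both genes enters this p. Without control mice 4 and 7, the farthest from the median of Mt1, r was 0.82 over 6 mice. It was 0.99 in the 4 females and 0.90 in the 4 males, but an r over 4 mice carries little weight. Some other pairs reached such values in 1 sex. Mt3 and Mtf1 had 0.998 in females and 0.088 in males, and Mt1 and Mt3 had 0.90 in males and -0.36 in females. After removing additive effects of group and sex, r between Mt1 and Mt2 was 0.87, for which no p was computed. Any difference between the sexes in the genotype effect stayed in these values. The order of the 8 mice was the same for both genes apart from NEKO mouse 6 and control mouse 8, which changed places. The points share the scaling of each array. Over all 8 mice the other 14 pairs among the 6 genes had r between -0.53 and 0.44, none of which passed the test (lowest adjusted exact permutation p = 0.880 for Pearson's r).

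**Figure D2:**
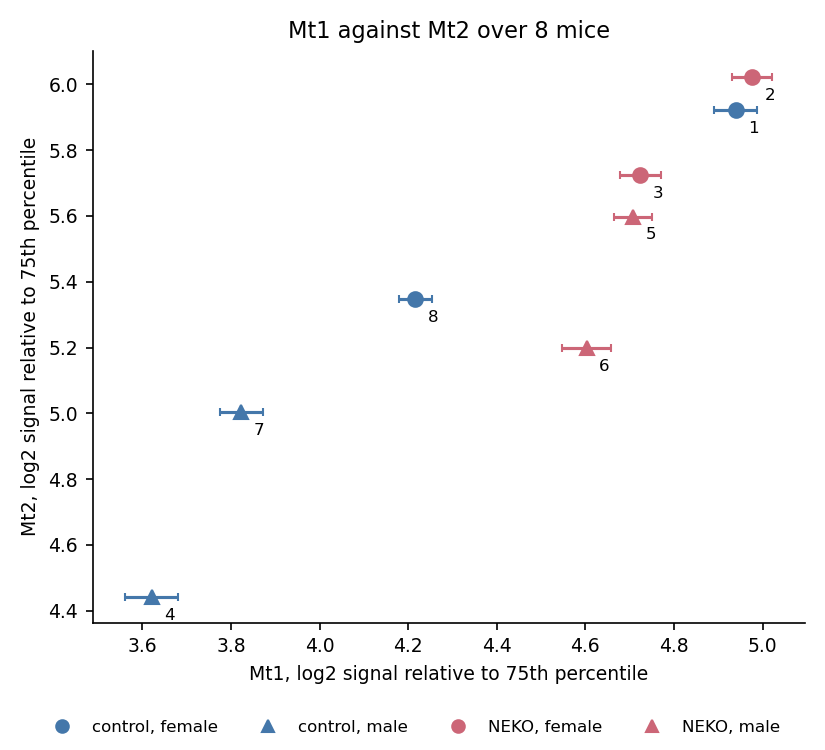
Mt1 against Mt2 in 8 mice, both as log2 signal relative to the array's 75th percentile. Circles are females and triangles males, numbers name the mice, and horizontal bars give the SD between the 10 Mt1 spots of an array. The mice fall along a line from control mouse 4 (3.62 and 4.44) to NEKO mouse 2 (4.98 and 6.02), with control mouse 1 beside NEKO mouse 2.

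Mt1 was not the gene most like Mt2, nor Mt2 the gene most like Mt1, by Pearson's r over the 8 arrays. For Mt1 the 3 named genes with the highest r were Firre (0.98), Luc7l2 (0.98) and Arhgap23 (0.98), with Mt2 at rank 24. For Mt2 they were Tns2 (0.97), Chp1 (0.97) and Dnajc17 (0.97), with Mt1 at rank 17. Among 13571 named genes over 8 arrays, values of this height are reached by some genes in any case, and they are given as a description.

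Mt3 (NM_013603), known as the growth inhibitory metallothionein of brain, responds little to metals in most settings. It was at -0.52, -0.36, -0.40 and -0.45 in control mice 1, 4, 7 and 8. In NEKO mice 2, 3, 5 and 6 it was at -0.49, -0.37, -0.00077 and -0.20. Only the NEKO males, mice 5 and 6, lay above all controls, and both NEKO females lay within the control range. The means of -0.26 ± 0.21 (SD, n = 4) and -0.43 ± 0.07 (SD, n = 4) differed by 0.17 (SE 0.086, adjusted p = 0.344 from limma, exact permutation p = 0.229). The difference was 0.058 in females and 0.28 in males, and the difference between the sexes, 0.22 (SE 0.16), had an adjusted p of 0.714. The 3 genes most like Mt3 over the 8 arrays were Treml1 (r = 0.99), S100a9 (r = 0.98) and Plek (r = 0.98).

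The remaining metallothionein, Mt4, which is known from stratified squamous epithelium and is not one of the 6 genes, went the other way. It was at -3.36, -2.87, -3.50 and -3.59 in control mice 1, 4, 7 and 8 and at -3.93, -4.33, -3.88 and -4.53 in NEKO mice 2, 3, 5 and 6. Every NEKO mouse lay below every control mouse, a log2 difference of -0.84 (SE 0.21, adjusted p = 0.140 from limma, exact permutation p = 0.0286). It was not called, and 5.39% of all features were separated in that direction. Its other probe was not above background on any array. Of the 4 metallothioneins, 3 had positive differences and 1 a negative difference, and 0 were called, where 0.225% of all features were.

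Mtf1 (NM_008636), the zinc sensor upstream of the metallothioneins, was read by 3 probes, of which the third was not above background on any array. By its brightest probe it was at -0.89, -0.93, -0.87 and -0.71 in control mice 1, 4, 7 and 8. The NEKO mice 2, 3, 5 and 6 were at -0.78, -0.51, -0.92 and -0.61 by this probe. NEKO mice 3 and 6 lay above all controls and mice 2 and 5 among them, and the log2 difference of 0.15 (SE 0.10, 95% interval -0.10 to 0.39) did not pass the test (adjusted p = 0.481 from limma, exact permutation p = 0.229). It was 0.15 in females and 0.14 in males.

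The second Mtf1 probe went the other way. It was at -0.83, -0.67, -0.71 and -0.88 in control mice 1, 4, 7 and 8 and at -0.99, -1.03, -1.06 and -1.32 in NEKO mice 2, 3, 5 and 6. Here the groups did not overlap, with every NEKO mouse lower, and the log2 difference was -0.33 (SE 0.10, exact permutation p = 0.0286). Adjusted over all 26027 probes this was not called (adjusted p = 0.196 from limma), where 0.227% of probes were called and 8.68% had groups without overlap. The mean of both Mtf1 probes gave a log2 difference of -0.09 (adjusted p = 0.541), so that the arrays settle no direction for Mtf1. The 3 genes most like its brightest probe were Cse1l, Naa11 and Uba1 (r = 0.98, 0.98 and 0.97). Both probes of the genes with more than 1 usable probe are plotted side by side.

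**Figure D3:**
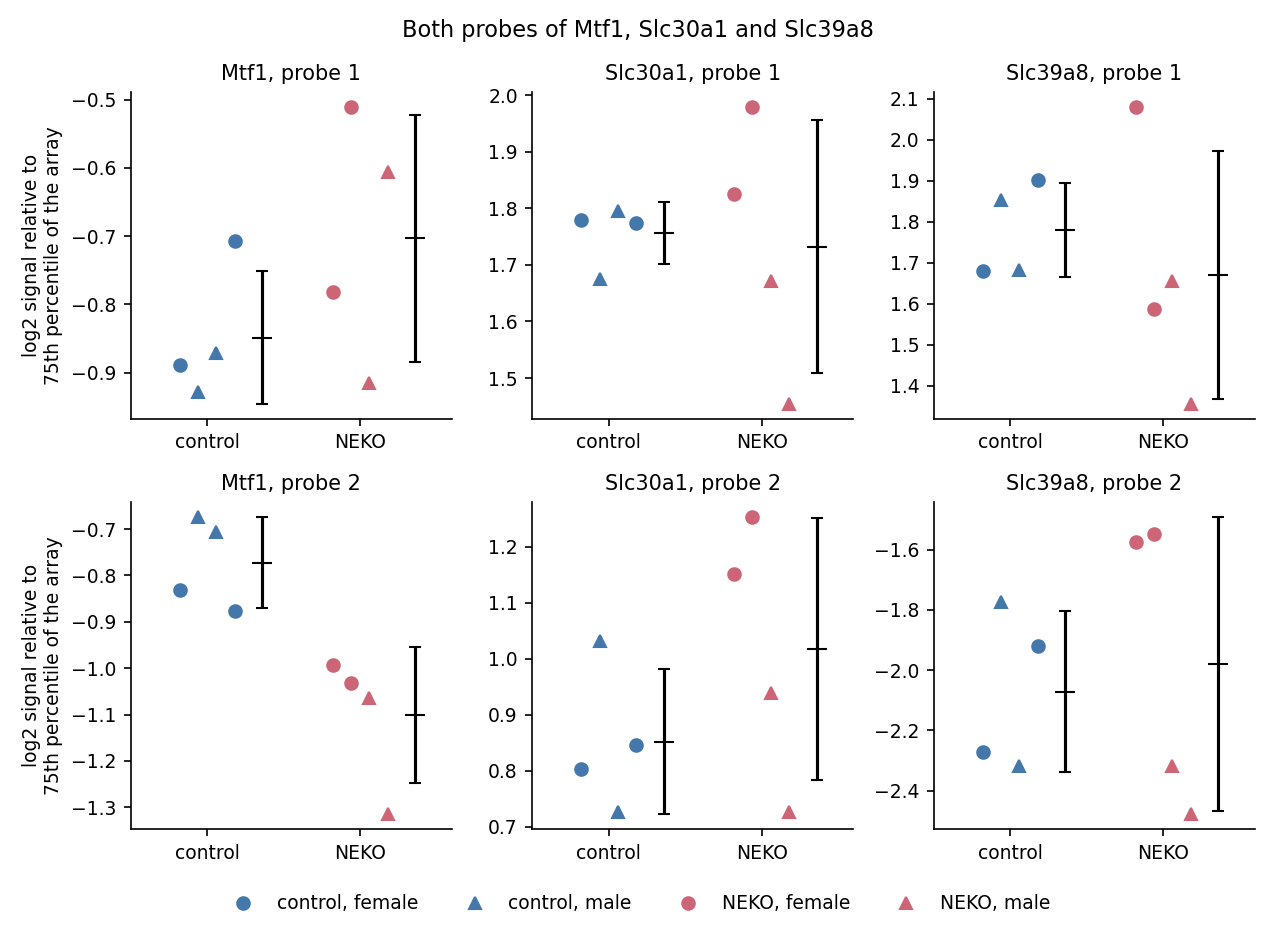
Level in each mouse by the brightest probe (upper row) and the second probe (lower row) of Mtf1, Slc30a1 and Slc39a8. The vertical axes give log2 signal relative to the array's 75th percentile, circles are females and triangles males, and bars are the mean ± SD of 4 mice. The second Mtf1 probe is lower in all 4 NEKO mice (-0.99 to -1.32) than in all 4 controls (-0.67 to -0.88), whereas the first probe overlaps.

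Slc30a1 (NM_009579) encodes ZnT1, which exports zinc across the plasma membrane and is itself induced by zinc through MTF-1. It was at 1.78, 1.68, 1.79 and 1.77 in control mice 1, 4, 7 and 8. In NEKO mice 2, 3, 5 and 6 it was at 1.82, 1.98, 1.67 and 1.45. The controls lay within a narrow range, with both NEKO females above it and both NEKO males below it, mouse 5 by a margin smaller than any SD of the group, an opposite separation of the sexes that 5.96% of all features showed. The log2 difference was -0.02 (SE 0.098, 95% interval -0.26 to 0.21), which as a ratio runs from 0.837 to 1.16 (adjusted p = 0.915 from limma, exact permutation p = 0.886). The difference was 0.13 in females and -0.17 in males, and the difference between the sexes, -0.30 (SE 0.17), had an adjusted p of 0.632. By the second probe the log2 difference was 0.17 (SE 0.12), with 0.38 in females and -0.05 in males, and the males overlapped. The 3 genes most like Slc30a1 were Itgav (r = 0.96), Gm9758 (r = 0.95) and Tspan15 (r = 0.95).

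Slc39a8 (NM_026228) encodes ZIP8, which carries zinc and manganese, and also cadmium, into cells. It was at 1.68, 1.85, 1.68 and 1.90 in control mice 1, 4, 7 and 8. In NEKO mice 2, 3, 5 and 6 it was at 2.08, 1.59, 1.65 and 1.36. NEKO mouse 2 was the highest and the other 3 NEKO mice the lowest of the 8. The log2 difference was -0.11 (SE 0.15, 95% interval -0.46 to 0.24, adjusted p = 0.707 from limma, exact permutation p = 0.514). It was 0.042 in females and -0.26 in males, and the difference between the sexes, -0.31 (SE 0.29), had an adjusted p of 0.788. By the second probe it was 0.09 (SE 0.22), with 0.53 in females and -0.35 in males. The 3 genes most like Slc39a8 were Slc16a13 (r = 0.95), Slc22a19 (r = 0.94) and Dgke (r = 0.94).

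**Figure D4:**
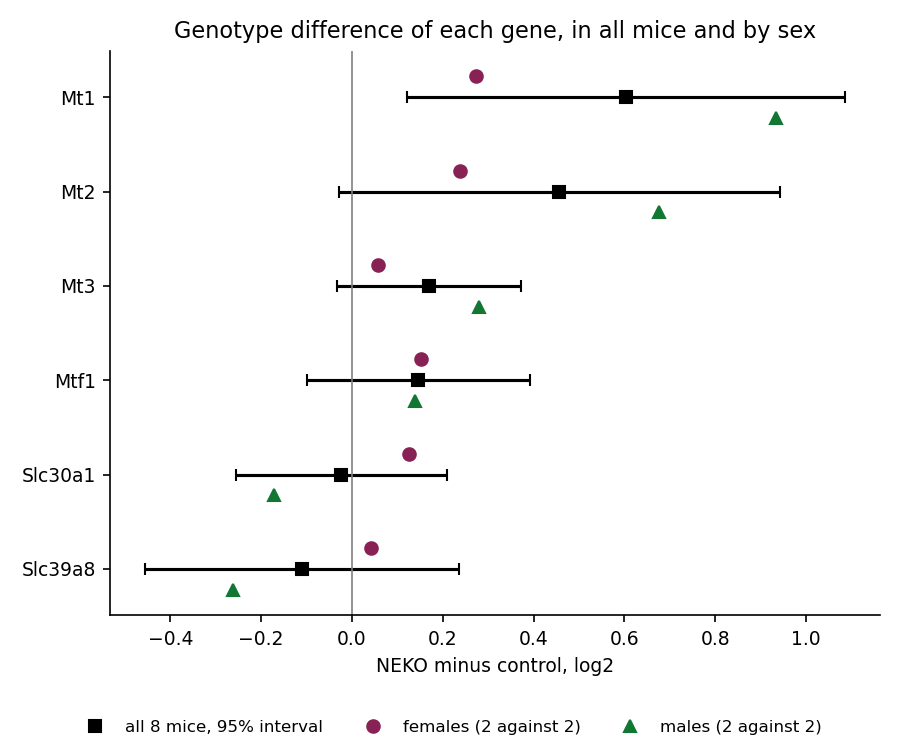
NEKO minus control on the log2 scale for the 6 genes. Squares with bars are the limma estimate over 8 mice with its 95% interval, and circles and triangles are the differences within females and within males (2 mice against 2). The interval of Mt1 (0.12 to 1.09) lies above 0 without adjustment for the number of features, and the intervals of the other 5 genes cross 0.

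Males and females were also compared. Over both groups, males minus females was -0.69 (SE 0.21) for Mt2, -0.53 (SE 0.20) for Mt1 and 0.22 (SE 0.086) for Mt3 on the log2 scale. These 3 passed at an unadjusted p under 0.05, as did 21.2% of all features, and none was called after adjustment (adjusted p = 0.127, 0.205 and 0.210 from limma, with 0.786% of all features called). In the controls alone males minus females was -0.86 for Mt1 and -0.91 for Mt2, and in NEKO mice it was -0.20 and -0.47. For both genes the 2 lowest of the 8 values were those of the male controls.

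The other zinc transporters gave the setting for Slc30a1 and Slc39a8. Over all features 0.225% were called. Among 10 exporters of the Slc30 family, 6 had a usable probe and 0 were called, with differences from -0.20 to 0.15 and a median of 0.11. The 3 with the lowest p were Slc30a4 (0.11, SE 0.076), which loads zinc into vesicles, Slc30a5 (-0.20, SE 0.13) and Slc30a6 (0.12, SE 0.093), which act together in the secretory pathway. Among 14 importers of the Slc39 family, 13 had a usable probe and 0 were called, with a median of -0.0085. At an unadjusted p under 0.05, 3 of the 13 importers were higher and 2 lower, where 7.37% of all features were higher and 10.6% lower.

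Slc39a4, which encodes ZIP4, the importer needed for zinc uptake in the gut, had the widest difference of the transporters tested. It was at -1.40, -2.29, -1.84 and -1.69 in control mice 1, 4, 7 and 8. In NEKO mice 2, 3, 5 and 6 it was at -1.20, -0.97, 0.39 and 0.75. All NEKO mice were above all controls, and the NEKO males stood far above the rest. The log2 difference was 1.55 (SE 0.43, adjusted p = 0.163 from limma, exact permutation p = 0.0286), and 3.88% of all features were separated in this direction. It was 0.46 in females and 2.64 in males, and the difference between the sexes, 2.18 (SE 0.30), had an adjusted p of 0.0911. With sex and genotype interacting and the effect averaged over the sexes, Slc39a4 passed the test (adjusted p = 0.00932), a setting under which 245 features were called higher in place of 19.

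The lower importers were Slc39a2 (-0.65, SE 0.15, adjusted p = 0.121 from limma) and Slc39a14 (-0.57, SE 0.17, adjusted p = 0.171), the latter encoding ZIP14, which takes up zinc, manganese and iron. In both genes the groups overlapped. The second probe of Slc39a14 gave -0.68. The metallothioneins and transporters are plotted together.

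**Figure D5:**
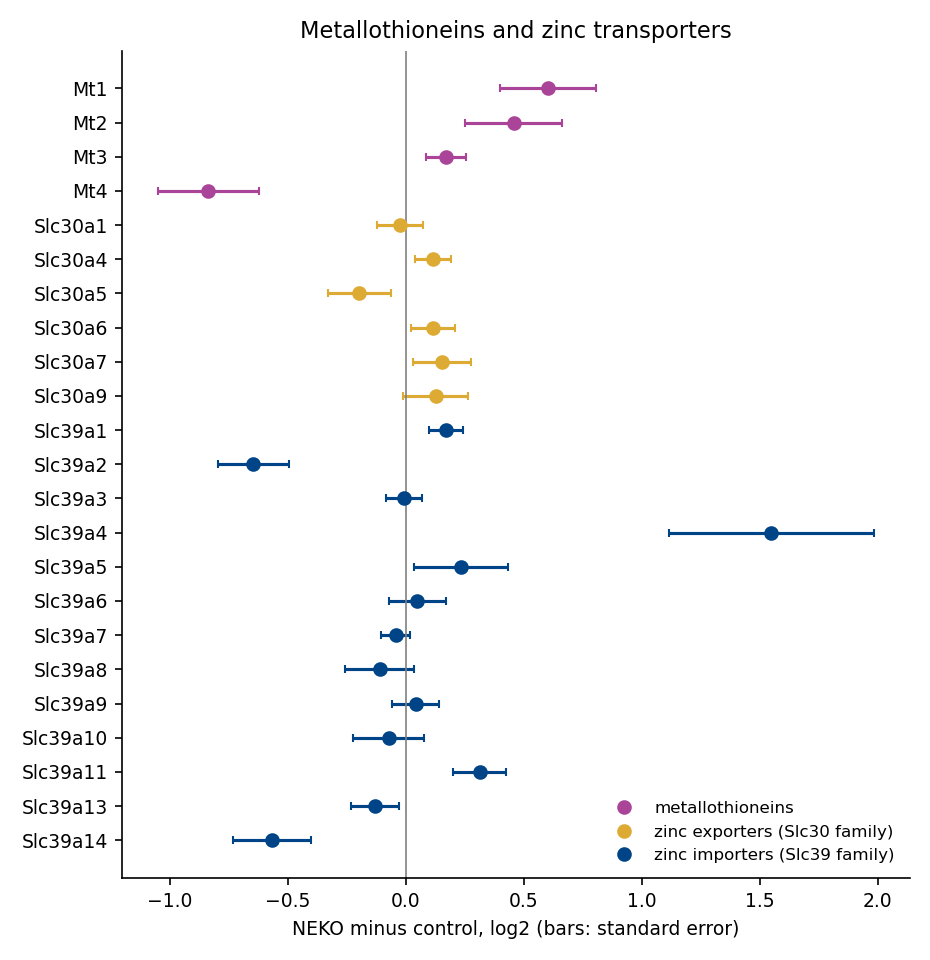
NEKO minus control on the log2 scale for 4 metallothioneins, 6 exporters and 13 importers with a usable probe. Points are limma estimates over 8 mice and bars their standard errors. Most transporters lie near 0, with Slc39a4 at 1.55 and Slc39a2, Slc39a14 and Mt4 at -0.65, -0.57 and -0.84, and none passed the adjusted threshold.

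Genes linked to MTF-1, copper or glucocorticoids were read in the same way, and 0.225% of all features were called at this threshold. Of 7 other genes tested that have been linked to MTF-1, 0 were called, with a median of 0.05. The nearest were Gclc (0.95, SE 0.37, adjusted p = 0.246 from limma), a subunit of the first enzyme of glutathione synthesis that is also an Nrf2 target, Cbs (-0.64, SE 0.29) and Selenow (0.30, SE 0.15). Of 10 copper-handling genes 0 were called, with a median of -0.08, and the nearest were ceruloplasmin, Cp (0.58, SE 0.23), the mitochondrial copper chaperone Cox17 (-0.22, SE 0.095) and Commd1 (-0.16, SE 0.079).

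Of 9 glucocorticoid-responsive genes tested 0 were called, with a median of -0.0082, where 0.225% of all features were called. In lists this short, 0 calls is near that share. The lowest p belonged to Cdkn1a (-0.74, SE 0.29), Sult1a1 (-0.39, SE 0.19) and Klf9 (-0.24, SE 0.13). Among 9 acute phase and injury genes 0 were called, and Clu (-0.85, SE 0.21), Krt20 (1.37, SE 0.45) and Lcn2 (0.73, SE 0.25) were the nearest. Among 8 hypoxia-responsive genes 0 were called, and Egln3 (1.25, SE 0.19), Bnip3 (0.50, SE 0.096) and Ankrd37 (1.29, SE 0.52) were the nearest. At an unadjusted p under 0.05, 3 hypoxia genes were higher and 0 lower. For the acute phase and injury genes it was 3 and 1, for the glucocorticoid list 0 and 1, and for all features 7.37% and 10.6%. Every NEKO value exceeded every control value in 2 hypoxia genes (3.88% of all features), and the reverse held in 1 acute phase and injury gene (5.39%).

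Genes that Nrf2 is known to activate were read for comparison. Of 14 tested, 2 were called and both were higher: Gpx2, a glutathione peroxidase, by 5.40 (SE 0.46, adjusted p = 0.0106 from limma) and Txnrd1, a thioredoxin reductase, by 1.30 (SE 0.17, adjusted p = 0.0486). Over all features 0.225% were called. In all 12 of the 14 were higher at an unadjusted p under 0.05, as were 7.37% of all features, and the median was 1.30. In 9 of the 14 every NEKO value exceeded every control value, as in 3.88% of all features. Others of the list with low p were G6pdx (1.01, SE 0.16), Nqo1 (2.62, SE 0.43) and Ugdh (1.34, SE 0.22), none of which was called. The difference between these targets and the 6 zinc genes was not tested.

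Markers of other kidney cells were read beside these genes. None of the markers was called, where 0.225% of all features were. The summed level of 5 intercalated cell markers was 6.24 to 23.3 in NEKO and 35.6 to 47.8 in control kidneys, without overlap. Taken singly, 2 of these 5 had every NEKO value below every control value, as did 5.39% of all features. Their log2 differences ran from -2.07 to -0.09, with a median of -0.90. In every other list the summed levels of the groups overlapped. The summed level was 214 to 381 in NEKO against 365 to 432 in control kidneys for 5 thick ascending limb markers, 5.41 to 11.6 against 11.2 to 118 for 5 podocyte markers and 3.66 to 10.2 against 6.91 to 10.4 for 3 distal convoluted tubule markers. For 6 urothelium markers the summed level was 2.53 to 6.00 against 1.17 to 3.06. The sums are linear and follow the brightest markers of a list. Among the podocyte markers 3 differences were positive and 2 negative, with a median of 0.22 on the log2 scale. At an unadjusted p under 0.05, which 10.6% of all features passed as lower and 7.37% as higher, 3 of 5 intercalated cell, 3 of 3 distal convoluted tubule, 2 of 5 thick ascending limb, 1 of 5 podocyte and 1 of 5 principal cell markers were lower, and 4 of 6 urothelium markers were higher. Of the proximal tubule markers 2 of 10 were higher and 1 of 10 lower at that threshold. The remaining summed levels were those of principal cell (33.0 to 44.8 against 39.5 to 48.9), endothelium (32.1 to 35.2 against 28.7 to 35.4), macrophage (3.99 to 6.99 against 4.67 to 5.94), lymphocyte (0.205 to 0.473 against 0.346 to 0.454) and fibroblast (32.1 to 85.5 against 24.2 to 43.7). In each of endothelium, macrophage and fibroblast 1 marker was higher, and 1 lymphocyte marker was lower, at the unadjusted threshold. Their part in the levels of the metallothioneins and zinc transporters was not tested.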

How the data were processed

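Kidney RNA of 4 NEKO and 4 control mice was measured on 8 Agilent arrays, and the labels gave every mouse its group. The authors deposited, for each array, Feature Extraction 10.7.3.1 output with intensity values per spot: the processed signal has background subtracted and spatial trends removed and is not normalized between arrays. The deposited matrix of log2 values holds the same signals, scaled to the array's 75th percentile and centred on each probe, since every value lay within 0.01 of the recomputed one.

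Here outlier spots were left out (73 to 172 of 43379 non-control spots per array), the spots of a probe were averaged, and the array's 75th percentile was taken from the log2 processed signal. A probe was kept if 4 or more of the 8 arrays showed it well above background and 6 or more gave it a value, and the brightest kept probe stood for its gene. Of 41174 probes, 26690 were named by RefSeq accession (GRCm38.p6), which gave 13571 named genes tested beside 6023 unnamed transcripts. The array annotation is on mm9, so only promoter windows carry coordinates. Slc30a2, Sco2, Zbtb16 and Cd68 had no probe named this way.

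NEKO and control were compared in limma 3.58.1 under R 4.3.3 with genotype and sex, which is also the slide block, with Benjamini-Hochberg adjustment over 19594 features, and another model let sex and genotype interact. The procedure was tested on simulated data. For single genes an exact two-sided permutation was added. The number of arrays limits the precision. The paper's methods name an unpaired comparison allowing unequal variances, which was run as an alternative.

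The members and lists were chosen with earlier results of these data known. Named genes are the 6 members, list genes called by limma with up to 3 others of lowest unadjusted p in each list, the 3 genes most correlated with each member and Keap1; Mt4 enters as a metallothionein. Cell type markers are given as sums and as counts in each list, with the median difference for the podocyte and intercalated cell lists. Alternatives were normexp background correction (offset 50, on the median signal), quantile and median scaling, no filter, detection required on all 8 arrays, averaging the kept probes, leaving out the sex term, slide as a random block, the interaction model averaged over the sexes, array weights, eBayes with a robust trend, the methods' comparison, the deposited matrix, and leaving out each mouse.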

Additional observations from a re-analysis of the deposited data

Results flagged for a closer look

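For Slc30a1, the zinc exporter, both NEKO females lay above both control females and both NEKO males below both control males, so that the genotype difference had opposite signs in the sexes. Males minus females of that difference was -0.30 on the log2 scale (SE 0.17), and the limma interaction test did not pass (unadjusted p = 0.134, adjusted p = 0.632). Of all features, 5.96% showed such opposite separation in females and males. NEKO mouse 5 (1.67) lay below control mouse 4 (1.68) by less than 0.01, and by the second probe the males overlapped. Among the 18 groups of 4 mice examined for the 6 genes and their second probes, 0 held a mouse far from the other 3.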

How the results depend on the processing

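None of the 6 genes was called under any alternative, and the direction of Mt1, Mt2 and Mt3 held under all of them (Mt1 0.27 to 0.93, the extremes being females and males alone), whereas Slc39a8 was 0.042 in females alone. With the mean of the kept probes Mtf1 became -0.091 and Slc30a1 0.071, because the second probes of both genes went the other way. Leaving out 1 mouse at a time gave 0.50 to 0.81 for Mt1, 0.30 to 0.62 for Mt2, 0.11 to 0.22 for Mt3, 0.085 to 0.21 for Mtf1, -0.084 to 0.050 for Slc30a1 and -0.24 to -0.02 for Slc39a8; Slc30a1 turned positive without NEKO mouse 6 (0.050) and without control mouse 7 (0.030). Of the zinc transporters, 1 (Slc39a4) was called with the interaction model averaged over the sexes and 1 (Slc39a4) by the methods' comparison without adjustment. Over all features, 19 passed upwards and 25 downwards. These became 69 and 113 with normexp, 8 and 12 with detection on all 8 arrays, 245 and 268 with the interaction model averaged over the sexes, 41 and 82 with array weights, 40 and 53 with a robust eBayes trend, 943 and 1269 by the methods' comparison without adjustment and 0 and 1 with it, and 16 were lower without the sex term. Leaving out 1 mouse gave 9 to 24 higher and 8 to 25 lower, and these counts fell most without control mice 4, 7 and 8 and NEKO mice 5 and 6. Where not stated, the cause was not tested. The median over all features moved by less than 0.1 on the log2 scale under every scaling. No paired analysis was possible because the replicate numbers in the labels run over both groups, so that none is shared. With 4 arrays a group, the unadjusted 95% intervals as ratios were 0.837 to 1.16 for Slc30a1 and 1.09 to 2.12 for Mt1. Each interval belongs to its own gene and is not the smallest change that could be called. Nqo1, with a log2 difference of 2.62, was not called (adjusted p = 0.0651 from limma).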
